A study of Mus musculus with 96 samples.

Results

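Expression of 10 genes that carry or brake the cell cycle was followed in mouse liver cells through the day. The 10 genes were taken by symbol from 25095 gene symbols in the deposited tables, and where a symbol had several transcripts the one of highest mean was used. They comprised Ccnd1, Ccne2 and Myc, which push cells from G1 toward S phase, Mki67 and Top2a, which mark cells in cycle, and 5 brakes or stress genes, namely Wee1, Cdkn1a, Gadd45a, Gadd45b and Gadd45g. The 96 RNA sequencing libraries came from hepatocytes (48) and liver macrophages (48) of male C57BL/6J mice kept for 4 weeks on a high fat and sucrose diet. The mice carried floxed alleles and had been injected at 8 weeks of age with adeno-associated virus that expressed GFP (Control) or Cre recombinase (all knockouts) from the TBG promoter, which is active in hepatocytes, so every group had received a virus and the diet, and the macrophages came from livers whose deletion was directed to hepatocytes. RevDKO lacked both REV-ERB genes (Nr1d1 and Nr1d2) by label, ScapKO lacked Scap, and RevScapTKO lacked all 3 genes. Libraries were made at zeitgeber time (ZT, hours after lights on, lights off at ZT12) 4, 10, 16 and 22, 3 libraries per genotype and cell type at a time. The paper calls the replicates biological, but the labels did not tie each library to a separate animal. The p-values therefore measured the spread between these libraries, which could in part be technical.

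Progress through the cell cycle is driven by cyclins bound to cyclin-dependent kinases (CDKs). D-type cyclins respond to growth signals, E-type cyclins act at the entry to S phase, and p21 (encoded by Cdkn1a) and the kinase WEE1 hold CDKs back at the G1 and G2 checkpoints. The circadian clock is known to gate these steps in liver: Wee1 is a target of CLOCK and BMAL1 through E-boxes, and Cdkn1a is repressed by REV-ERBα through the elements at which ROR proteins activate it. Hepatocytes of an adult liver rarely divide.

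Values are in RPKTM, reads per kilobase of transcript per 10000000 mapped reads, quantile normalized by the authors in 4 tables (Control, RevDKO and RevScapTKO hepatocytes, 36 libraries; the same genotypes in macrophages, 36; ScapKO hepatocytes, 12; ScapKO macrophages, 12). Levels were therefore compared only within a table, and the sequencing depth is unknown. Scap was lower in RevScapTKO hepatocytes (median 210.0 RPKTM, range 82.8 to 299, n = 12) than in Control (494, 395 to 698) and RevDKO (525, 321 to 733), with no overlap. Nr1d1 was not lower in RevDKO hepatocytes (median 91.3, range 39.9 to 359) than in Control (45.9, 3.57 to 358), nor was Nr1d2 (320.1 against 218). These reads were counted over whole transcripts, so they did not test whether the floxed part of each gene was lost. The paper reports that mRNA of both genes was markedly reduced in hepatocytes, from relative expression in a figure whose legend names livers. These whole-transcript values do not show it, but they are another measure with other group sizes. The names RevDKO and RevScapTKO are used below for the libraries that carry them as labels. Arntl, which REV-ERBs repress, had a median of 141 in RevDKO (117 to 155) and 60.6 in Control (4.21 to 119). The ScapKO hepatocyte libraries are named hepatocytes in their titles and liver macrophages in their cell type field; their hepatocyte markers summed to 406350 to 1322270 RPKTM over 10 genes and macrophage markers to 530.0 to 3728 over 12 genes, and they are treated here as hepatocytes. Macrophage libraries of the remaining genotypes held hepatocyte markers at 36536 to 2407560 RPKTM beside macrophage markers at 3458 to 40846. Median correlations of a library with the others of its table were 0.961 to 0.983 in hepatocytes and 0.858 to 0.961 in macrophages, where 5 libraries lay under 0.9 (Control ZT22 replicate 2, RevDKO ZT10 replicate 2, RevDKO ZT16 replicates 1 and 2, RevDKO ZT22 replicate 2). In ScapKO hepatocytes, replicate 2 at ZT22 had a Scap level of 1006 RPKTM where the median of 12 was 345, and replicate 3 at ZT16 had an Xist level of 129.7, unlike the male label.

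Promoter windows of 250 bases before to 50 bases after the start site were taken from RefSeq (GRCm38.p6) and matched 6 of the 10 genes. No window was at hand for Wee1, Ccnd1, Ccne2 and Myc, so the promoters of these genes were not searched. They are shown for Mki67 and Top2a, whose levels moved together below. Capitals mark the CCAAT box (CCAAT, on either strand, ATTGG on the other) and the cell cycle genes homology region or CHR (TTTGAA, on either strand, TTCAAA on the other), elements known from promoters that are silent in resting cells.
Mki67: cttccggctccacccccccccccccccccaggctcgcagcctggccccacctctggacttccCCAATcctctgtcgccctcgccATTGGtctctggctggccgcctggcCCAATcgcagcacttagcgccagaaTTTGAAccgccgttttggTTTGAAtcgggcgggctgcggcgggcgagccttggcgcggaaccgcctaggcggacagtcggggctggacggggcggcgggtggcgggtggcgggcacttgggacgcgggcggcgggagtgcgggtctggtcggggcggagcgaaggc
Top2a: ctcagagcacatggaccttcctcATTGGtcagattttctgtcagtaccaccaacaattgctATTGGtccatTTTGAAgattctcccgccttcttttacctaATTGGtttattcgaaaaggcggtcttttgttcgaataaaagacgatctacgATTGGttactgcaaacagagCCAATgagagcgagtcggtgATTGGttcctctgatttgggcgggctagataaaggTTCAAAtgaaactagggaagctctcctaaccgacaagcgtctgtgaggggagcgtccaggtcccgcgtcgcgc
The Mki67 window lies on the minus strand at chr7:135716330-135716629 and the Top2a window on the minus strand at chr11:99024140-99024439. Mki67 held 3 CCAAT boxes and 2 CHR matches, and Top2a held 6 and 2. Among 32851 mouse promoter windows of this length, 37.4% held a CCAAT box and 17.9% a CHR match. CHR was found in no other of the 6 genes, whereas CCAAT was also in the windows of Gadd45a, Gadd45b and Gadd45g. An E-box (CACGTG), present in 7.15% of all windows, was found in Gadd45b and Gadd45g. The REV-ERB and ROR half-site (AGGTCA, 16.3% of all windows), the D-box (TTATGTAA, 0.938%) and the E2F site (TTTCCCGC, TTTGGCGC or TTTCGCGC, 1.84%), searched on both strands, were in none of the 6. These are matches of letters and not sites of binding.

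In Control hepatocytes the median level over the day (n = 12 libraries, per kilobase) was highest for Ccnd1 (49.9 RPKTM), followed by Gadd45g (37.4), Wee1 (27.0), Cdkn1a (19.5), Ccne2 (17.0), Gadd45a (13.0), Myc (10.9), Mki67 (9.71), Top2a (5.93) and Gadd45b (0.514). Ranges of neighbours in this order overlapped throughout, and Gadd45b lay at or under 7.30 RPKTM in each of the 36 libraries. In Control macrophages the order was led by Ccnd1 (121) and Mki67 (47.9), while Cdkn1a (4.77), Ccne2 (4.56), Gadd45b (2.53) and Gadd45a (2.50) were lowest. All 10 genes passed the filter on low values (over 5 RPKTM in at least 3 libraries of the table) in each table, Gadd45b in hepatocytes with 3 libraries.

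Of the 5 brakes or stress genes, 3 differed between RevDKO and Control hepatocytes, and not in 1 direction. Over the 4 times, Cdkn1a was higher and Wee1 and Gadd45a were lower in RevDKO, while Ccnd1, Ccne2, Myc, Mki67, Top2a, Gadd45b and Gadd45g did not pass the test. These 3 of 10 genes compare with 4.43% of all 13326 genes tested by limma on log2(RPKTM + 1) at a Benjamini-Hochberg adjusted p under 0.05 (2.0% higher, 2.43% lower). At single times, 4 of 40 gene and time pairs passed, where 0.413% of all genes were higher and 0.173% lower at ZT4, 0.69% and 0.495% at ZT10, 0.15% and 0.15% at ZT16, and 0.263% and 0.225% at ZT22.

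Wee1 (NM_009516, mm9 chr7:117265573-117286813, plus strand) encodes the kinase that inhibits CDK1 before mitosis. In Control hepatocytes its 3 libraries read 9.25, 29.5 and 16.4 RPKTM at ZT4, 68.0, 82.9 and 80.1 at ZT10, 31.6, 24.6 and 31.7 at ZT16 and 18.02, 19.1 and 20.4 at ZT22. The Control libraries at ZT10 stood above every other hepatocyte library of the table. In RevDKO the values were 9.80, 12.1 and 7.60 at ZT4, 15.1, 23.2 and 29.1 at ZT10, 23.8, 20.2 and 24.96 at ZT16 and 10.3, 8.81 and 6.36 at ZT22. A daily rise was still seen in RevDKO, with ZT10 and ZT16 above both other times, but its highest library read 29.1. The mean over the day fell by 0.98 on the log2 scale (SE 0.18, adjusted p = 0.000469), and the difference at ZT10 alone was -1.77 (SE 0.36, adjusted p = 0.00482). Without RevDKO ZT10 replicate 1 the ZT10 difference was -1.52 with an adjusted p of 0.0586. In RevScapTKO, Wee1 lay between 8.23 and 32.6 RPKTM (median 20.1, n = 12), a difference of -0.58 (SE 0.18, adjusted p = 0.0119) from Control and of 0.40 (SE 0.18, adjusted p = 0.0937) from RevDKO.

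Cdkn1a (NM_007669, mm9 chr17:29230714-29237667, plus strand) encodes p21, an inhibitor of CDKs and a target of p53. At ZT10, Control hepatocytes read 1.06, 0 and 1.17 RPKTM, whereas RevDKO read 23.6, 66.4 and 34.1 and RevScapTKO 22.8, 46.8 and 39.2. The groups did not overlap at ZT10, the lowest knockout library (22.8) standing far above the highest Control library (1.17). At ZT4 the Control libraries split, with 32.0 in replicate 1 and 3.27 and 4.56 in the others, beside 29.2, 79.4 and 44.5 in RevDKO and 58.6, 93.4 and 70.3 in RevScapTKO. In the dark phase the groups overlapped, since Control read 18.6, 114 and 23.4 at ZT16 and 50.3, 20.5 and 31.3 at ZT22, against 78.6, 98.2 and 59.4 and then 34.5, 42.8 and 56.2 in RevDKO. RevDKO exceeded Control by 2.10 over the day (log2, SE 0.29, adjusted p = 5.63e-06) and by 4.56 at ZT10 (SE 0.57, adjusted p = 4.05e-06). The ZT4 difference of 2.38 (adjusted p = 0.0443) lost its call when any of 20 of the 36 libraries was left out, with values from 1.82 to 2.71, and it was 1.37 (adjusted p = 0.300) with robust library weights. RevScapTKO exceeded Control by 2.39 over the day (SE 0.29, adjusted p = 1.30e-07), and RevScapTKO and RevDKO differed by 0.29 (SE 0.29, adjusted p = 0.481).

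Gadd45a (NM_007836, mm9 chr6:66985090-66987401, minus strand) encodes a small protein induced by DNA damage that binds CDK1 and PCNA. Control hepatocytes read 11.4, 27.6 and 51.8 RPKTM at ZT4 and 20.7, 39.4 and 35.02 at ZT10, then 10.8, 5.59 and 5.45 at ZT16 and 14.7, 5.09 and 3.96 at ZT22. RevDKO libraries lay between 2.69 and 8.70 at all times (median 5.79, n = 12), and RevScapTKO between 0 and 8.94 (median 6.13). All 6 Control libraries of the light phase stood above all 24 knockout libraries, while the dark phase values overlapped. Over the day RevDKO was lower by 1.22 (log2, SE 0.26, adjusted p = 0.00306), a call that was lost with a pseudocount of 0.1 in place of 1 (adjusted p = 0.0656). The difference at ZT4 was -2.23 (adjusted p = 0.0360), and it lost its call without any 1 of Control ZT4 replicates 2 and 3 and RevDKO ZT4 replicates 1, 2 and 3, with adjusted p between 0.0679 and 0.203. RevScapTKO was lower than Control by 1.27 (SE 0.26, adjusted p = 0.000331). The transcript overlaps E230016M11Rik on the opposite strand over 809 bases, and the counting was not stated to use strand. Immediate early genes that respond to cell isolation had a lower median sum in both knockouts. Over 13 genes it was 938 RPKTM in Control (437 to 1476), 641 in RevDKO (378 to 1409) and 682 in RevScapTKO (318 to 1071). Of the 10 of them tested in RevDKO minus Control, 2 were lower and none higher (2.43% and 2.0% of all genes). At an unadjusted p under 0.05 by limma 6 were lower, and their median difference was -0.61 beside -0.01 for all genes. In RevScapTKO minus Control the 10 genes of cell isolation split, with 3 higher and 4 lower (17.3% and 18.7% of all genes). In RevScapTKO minus RevDKO 3 were higher and none lower (13.5% and 12.7% of all genes). Their part in the Gadd45a difference was not tested.

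**Figure D1:**
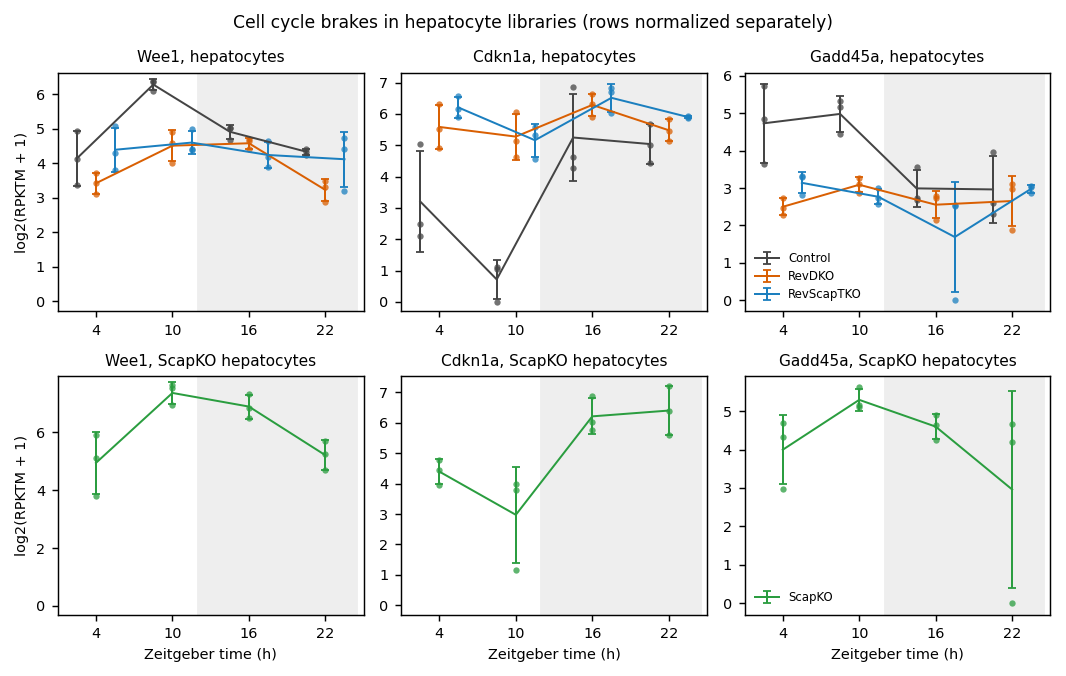
Levels of Wee1, Cdkn1a and Gadd45a as log2(RPKTM + 1) against zeitgeber time in hours, with each point 1 hepatocyte library, lines the means and bars the SD of 3 libraries (points are offset sideways by genotype, and grey marks the dark phase). The Control trough of Cdkn1a and the Control peaks of Wee1 and Gadd45a at ZT10 are absent or smaller in RevDKO and RevScapTKO, and the lower row shows the separately normalized ScapKO hepatocytes.

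The daily pattern of these brakes was tested with the 24 h cosine and sine terms of the same limma fit. In Control hepatocytes 3 of 10 genes had a 24 h pattern (8.29% of all genes). Cdkn1a had a peak-to-trough difference of 4.78 on the log2 scale with a fitted peak at ZT20.3 (adjusted p = 9.40e-06), Wee1 of 2.10 at ZT11.4 (adjusted p = 0.00114) and Gadd45a of 2.67 at ZT7.28 (adjusted p = 0.00370, and 0.0669 with a pseudocount of 0.1). In RevDKO, Wee1 alone kept a pattern that passed (peak-to-trough 1.73, peak ZT12.8, adjusted p = 0.0145; 4.08% of all genes), and in RevScapTKO none of the 10 genes passed (2 at an unadjusted p under 0.05; 0.683% of all genes). The difference in pattern between RevDKO and Control passed for Cdkn1a, whose peak-to-trough difference was smaller by 4.05 in RevDKO (adjusted p = 0.0263), in a comparison in which 0.203% of all genes passed. This call was lost with a pseudocount of 5 (adjusted p = 0.249), without the filter on low values (0.142), with only both genotypes fitted (0.0818), and without any 1 of 7 libraries (Control ZT10 replicate 2, Control ZT22 replicates 1 and 3, RevDKO ZT10 replicates 2 and 3, RevDKO ZT22 replicates 1 and 2), where the difference stayed between -4.06 and -3.72 with adjusted p from 0.0537 to 0.117. For Gadd45a the smaller peak-to-trough difference in RevDKO (-2.23) had an adjusted p of 0.673. Between RevScapTKO and RevDKO no gene of the 10 passed by limma (1 at an unadjusted p under 0.05), and none of all genes did.

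Between RevScapTKO and RevDKO hepatocytes, Ccnd1, Myc, Mki67 and Top2a were higher in RevScapTKO over the day, and none of the 10 genes was lower. These 4 of 10 genes compare with 26.2% of all genes in this comparison (13.5% higher, 12.7% lower), so that the count of calls alone sets the 10 genes little apart, and their median difference of 0.50 compares with -0.03 for all genes tested. At single times 4 of 40 pairs passed, namely Ccnd1, Mki67 and Top2a at ZT4 (9.28% of all genes) and Ccnd1 at ZT22 (2.35%). The percentages at ZT10 and ZT16, where no gene of the 10 passed, were 0.908% and 1.37%.

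Ccnd1 (NM_007631, mm9 chr7:152115836-152125830, minus strand) encodes cyclin D1, the partner of CDK4 and CDK6. RevScapTKO hepatocytes read 147, 376 and 254 RPKTM at ZT4, 109, 283 and 115 at ZT10, 53.9, 77.7 and 233 at ZT16 and 87.1, 177 and 101 at ZT22. RevDKO libraries lay between 26.4 and 75.6 (median 46.1, n = 12) and Control libraries between 24.04 and 79.7 (median 49.9). At ZT4, ZT10 and ZT22 each RevScapTKO library was above every RevDKO and Control library of any time, and at ZT16 the lowest RevScapTKO values fell into their range. The difference from RevDKO was 1.69 over the day (log2, SE 0.23, adjusted p = 3.09e-06) and that from Control 1.63 (SE 0.23, adjusted p = 3.26e-06). At ZT4 it was 2.44 (SE 0.47, adjusted p = 0.00120) and at ZT22 1.75 (SE 0.47, adjusted p = 0.0360); the latter call was lost without RevDKO ZT22 replicate 1 or 2 or RevScapTKO ZT22 replicate 2 or 3 (1.45 to 1.85, adjusted p from 0.0557 to 0.277). The transcript overlaps LTO1 on the opposite strand over 818 bases.

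Mki67 (NM_001081117, mm9 chr7:142881471-142908062, minus strand) encodes Ki-67, a protein of the surface of mitotic chromosomes present in all phases of the active cycle. RevScapTKO hepatocytes read 50.8, 1030 and 111 RPKTM at ZT4, 19.8, 246 and 38.1 at ZT10, 18.6, 58.7 and 198 at ZT16 and 19.9, 257 and 39.1 at ZT22. RevDKO lay between 6.09 and 15.4 (median 10.7, n = 12) and Control between 4.10 and 22.8 (median 9.71). Every RevScapTKO library was above every RevDKO library, and 3 of the 12 (18.6, 19.8 and 19.9) lay within the Control range, but at each time 1 library stood far above the other two. The difference from RevDKO was 2.81 (log2, SE 0.43, adjusted p = 1.75e-05), and it was 2.50 to 3.04 when each library in turn was left out. At ZT4 the difference of 4.01 (adjusted p = 0.00399) became 2.76 (adjusted p = 0.0784) without RevScapTKO ZT4 replicate 2.

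Top2a (NM_011623, mm9 chr11:98854261-98885503, minus strand) encodes the topoisomerase that untangles chromosomes in dividing cells. RevScapTKO hepatocytes read 25.04, 210 and 79.1 RPKTM at ZT4, 13.8, 125 and 23.1 at ZT10, 5.28, 32.2 and 104 at ZT16 and 10.7, 123 and 7.82 at ZT22. The highest library at each time carried the same replicate number for Top2a as for Mki67. RevDKO lay between 2.02 and 9.26 (median 6.31, n = 12) and Control between 1.17 and 12.3 (median 5.93), so that the lowest RevScapTKO libraries of ZT16 and ZT22 overlapped them. The difference from RevDKO was 2.51 (SE 0.44, adjusted p = 0.000116) over the day and 4.14 at ZT4 (adjusted p = 0.00374), the latter with an adjusted p of 0.0543 without RevScapTKO ZT4 replicate 2.

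Myc (NM_010849, mm9 chr15:61816896-61821916, plus strand) encodes the transcription factor that drives growth and ribosome production. RevScapTKO hepatocytes lay between 4.88 and 77.3 RPKTM (median 20.4, n = 12), RevDKO between 1.44 and 54.3 (median 5.63) and Control between 4.27 and 25.1 (median 10.9). The ranges overlapped, and the RevDKO maximum was 1 library at ZT4 whose companions read 5.09 and 8.89. RevScapTKO exceeded RevDKO by 1.32 (log2, SE 0.37, adjusted p = 0.00883), and it exceeded Control by 0.84 (SE 0.37, adjusted p = 0.0716), which did not pass. Ccne2 (NM_001037134, mm9 chr4:11118498-11131926, plus strand), which encodes cyclin E2, had medians of 17.0 in Control, 14.8 in RevDKO and 19.4 in RevScapTKO, and its differences of -0.15, 0.16 and 0.01 in the 3 comparisons had adjusted p of 0.790, 0.605 and 0.977. The Ccne2 transcript overlaps Ints8 on the opposite strand over 5622 bases.

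Markers of several other cell types were higher in RevScapTKO than in RevDKO hepatocyte libraries. The 12 macrophage markers, all above 5 RPKTM on average, summed to 1014 to 6710 RPKTM (median 3114) in RevScapTKO hepatocytes, against 417 to 2570 (median 1156) in RevDKO and 256 to 3306 (median 932) in Control. The 5 stellate cell markers had medians of 2383, 1095 and 773 in the same order, and the 5 endothelial markers 1881, 1144 and 1003. With the mean log2 level of the macrophage markers as a covariate, the differences from RevDKO were 0.92 for Ccnd1 (adjusted p = 0.0521), 1.54 for Mki67 (0.127), 0.95 for Top2a (0.432) and 1.06 for Myc (0.407). None of the 10 genes then passed by limma (4 at an unadjusted p under 0.05), where 2.55% of all genes did. The covariate itself differs between the genotypes, so its part and that of the genotype cannot be told apart by this fit. In bulk libraries fewer cells of a type and less RNA per cell cannot be told apart either. The changes of the brakes in RevDKO against Control were as large with this covariate (Cdkn1a 2.11, Wee1 -1.0004, Gadd45a -1.26, all 3 past the threshold).

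**Figure D2:**
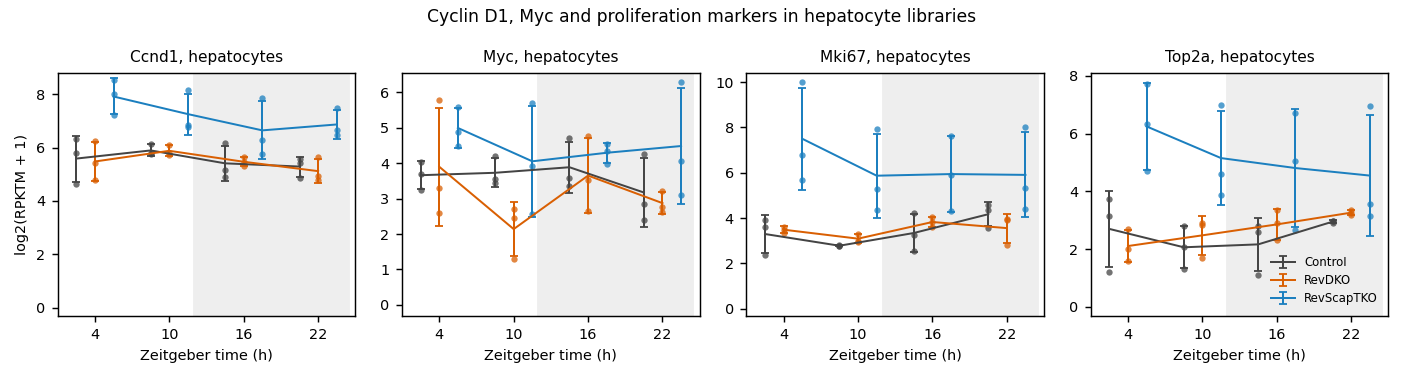
Levels of Ccnd1, Myc, Mki67 and Top2a as log2(RPKTM + 1) against zeitgeber time in hours, drawn as above (points are single hepatocyte libraries, lines means, bars the SD of 3 libraries, grey the dark phase). The RevScapTKO mean is the highest of the 3 genotypes at each time, with a wide spread, and single libraries overlap those of Control or RevDKO, for Myc at each time.

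The remaining stress genes did not pass in any comparison of mean level. Gadd45b (NM_008655, mm9 chr10:80392836-80394949, plus strand) was at 0 to 7.30 RPKTM in the 36 hepatocyte libraries, with medians of 0.514, 0.755 and 1.995 in Control, RevDKO and RevScapTKO. Gadd45g (NM_011817, mm9 chr13:51942044-51943843, plus strand), a relative of Gadd45a induced by cytokines and stress, was among the most abundant of the 10 but varied widely between libraries of 1 group. Its RevDKO hepatocytes read 199, 117 and 34.7 at ZT4 and 20.7, 142 and 11.8 at ZT16. Medians were 37.4 in Control (range 13.3 to 100.04), 55.3 in RevDKO (11.8 to 199) and 43.2 in RevScapTKO (9.26 to 78.2), and the differences of 0.51 and -0.47 (SE 0.42 each) had adjusted p of 0.606 and 0.433. RevDKO minus Control and RevScapTKO minus RevDKO share the RevDKO libraries, so that opposite signs in them are no independent result.

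Against Control, RevScapTKO hepatocytes differed in 6 of 10 genes, Cdkn1a, Ccnd1, Mki67 and Top2a being higher and Wee1 and Gadd45a lower, where 35.9% of all genes differed (17.3% higher, 18.7% lower). Mki67 differed by 2.91 (SE 0.43, adjusted p = 6.09e-06) and Top2a by 2.72 (SE 0.44, adjusted p = 2.27e-05). At single times 10 of 40 pairs passed, 5 at ZT4 (18.9% of all genes), 5 at ZT10 (4.35%) and none at ZT16 (3.24%) or ZT22 (3.62%). With the macrophage marker covariate, 2 of 10 genes passed (Cdkn1a 2.53 and Gadd45a -1.81), beside 5.67% of all genes. The other calls were lost, Ccnd1 at 0.80 (adjusted p = 0.0830), Mki67 at 1.53 (0.0936) and Top2a at 1.03 (0.260) being smaller than without the covariate, whereas Wee1 went from -0.58 to -0.80 (0.0628).

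**Figure D3:**
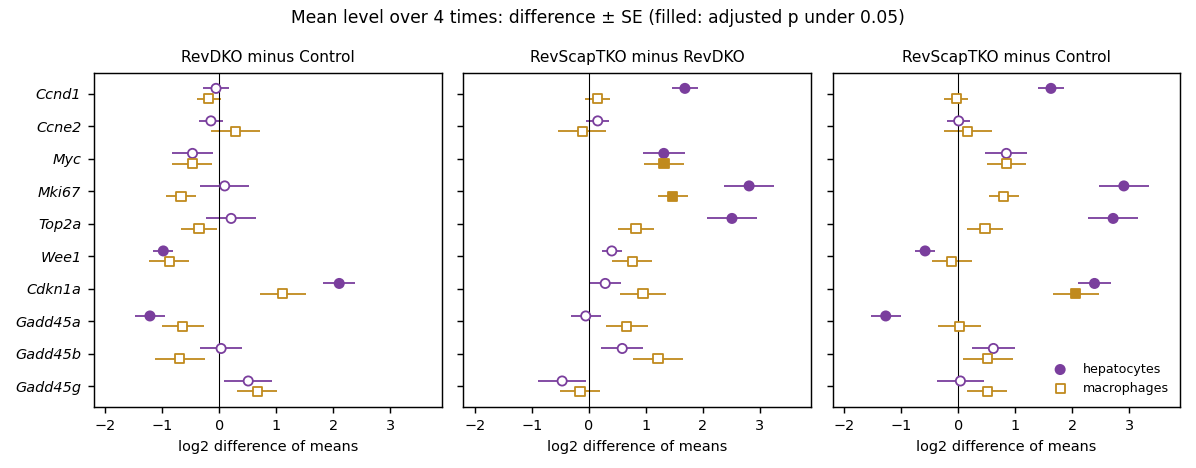
Difference in mean level over the 4 times on the log2(RPKTM + 1) scale for each gene, with bars of 1 SE, in hepatocytes (circles) and macrophages (squares); filled symbols had an adjusted p under 0.05. In RevDKO minus Control the filled symbols are Wee1, Cdkn1a and Gadd45a of hepatocytes, and in RevScapTKO minus RevDKO they are Ccnd1, Myc, Mki67 and Top2a of hepatocytes and Myc and Mki67 of macrophages.

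The other genes of the cell cycle, in 6 lists, were close to 0 in RevDKO minus Control hepatocytes. Of 15 regulators of G1 and of S phase entry, 3 CDK inhibitors, 17 replication genes, 24 genes of G2 and mitosis, 15 p53 targets and 9 genes of the MYC network that passed the filter, 1 was called in all, Sesn2 among the p53 targets, a stress sensor that restrains mTORC1 (-0.59, SE 0.17, adjusted p = 0.0374). The 0 calls by limma in the other 5 lists stand beside 3, 0, 1, 0 and 0 genes, in the order named, at an unadjusted p under 0.05. List medians ran from -0.07 to 0.05, beside -0.01 for all genes.

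In RevScapTKO minus RevDKO hepatocytes, 18 of 24 genes of G2 and mitosis were higher and none lower, with a median of 1.26 beside -0.03 for all genes. Cenpf, a kinetochore protein, went from a median of 1.68 RPKTM (0 to 4.71, n = 12) to 16.6 (3.86 to 104.9), a difference of 3.13 (SE 0.50, adjusted p = 3.34e-05). Cdk1, the mitotic kinase, went from a median of 1.491 to 5.57, a difference of 2.22 (SE 0.41, adjusted p = 0.000172). Cdc20, an activator of the anaphase-promoting complex, had a median of 0 in RevDKO and of 3.93 in RevScapTKO, with a difference of 2.42 (SE 0.47, adjusted p = 0.000337). Cenpf and Cdc20 stayed under 5 RPKTM in every Control and RevDKO library (highest 4.71 and 3.44), so they passed the filter through RevScapTKO alone. Such a filter favours genes that are high in RevScapTKO, and the counts of higher genes in these lists are in part set by it. Of 17 replication genes 9 were higher and 1 lower (median 0.73), led by Mcm6, Mcm5 and Mcm4 of the replicative helicase. Mcm6 lay between 13.7 and 221 in RevScapTKO (median 49.8) and between 8.89 and 16.8 in RevDKO (median 11.03), a difference of 2.11 (SE 0.28, adjusted p = 1.51e-06). Mcm5 differed by 1.86 (SE 0.27, adjusted p = 7.42e-06) and Mcm4 by 0.95 (SE 0.15, adjusted p = 1.51e-05).

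Of the 15 G1 regulators 4 were higher and none lower, with a median of 0.03, where 13.5% of all genes were higher and 12.7% lower. The 3 with the smallest p were Rbl1, the retinoblastoma relative p107 (1.15, SE 0.20, adjusted p = 7.03e-05), Ccnd2, cyclin D2 (0.53, SE 0.18, adjusted p = 0.0282), and Ccne1, cyclin E1 (0.83, SE 0.31, adjusted p = 0.0481). Of 15 p53 targets 5 were higher and 1 lower (median 0.37): Eda2r, a death receptor, by 1.74 (adjusted p = 0.000198), Zmat3, an RNA-binding protein, by 0.89 (adjusted p = 0.000251), and Bbc3, which encodes the apoptosis protein PUMA, was at -1.193 (adjusted p = 0.000608). In the MYC network 1 of 9 was higher and 3 were lower (median -0.26), among them Mycn at -1.48 (adjusted p = 0.00148) and Mxd3, a MAX partner, at -0.45 (adjusted p = 0.0251), while Mga, another MAX partner, was at 0.39 (adjusted p = 0.0113). None of 3 CDK inhibitors passed by limma (0 at an unadjusted p under 0.05). With the macrophage marker covariate the counts were 3 of 17 replication genes, 0 of 24 mitotic genes, 0 of 15 G1 regulators, 2 of 15 p53 targets and 0 of 9 MYC network genes, beside 2.55% of all genes, and the medians of the mitotic and replication lists were 0.56 and 0.36 beside 0.02 for all genes.

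Against Control the same libraries gave 21 of 24 mitotic genes higher, 12 of 17 replication genes higher and 1 lower, 6 of 15 G1 regulators higher and 1 lower, 6 of 15 p53 targets higher and 1 lower, and 3 of 9 MYC network genes lower, beside 17.3% of all genes higher and 18.7% lower. The limit that the filter sets on the counts of higher genes holds here too. The lower replication gene was Tk1, thymidine kinase (median 29.0 RPKTM in RevScapTKO and 65.3 in Control, difference -1.01, SE 0.17, adjusted p = 4.01e-05), and the lower G1 regulator was E2f8, a repressor of the E2F family (-0.86, SE 0.25, adjusted p = 0.00851). Cdk6, a partner of cyclin D, was at 0.45 (SE 0.14, adjusted p = 0.0106), Bub1b, a spindle checkpoint kinase, at 1.98 (SE 0.34, adjusted p = 4.85e-05) and Mycl at -1.112 (SE 0.25, adjusted p = 0.000775).

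**Figure D4:**
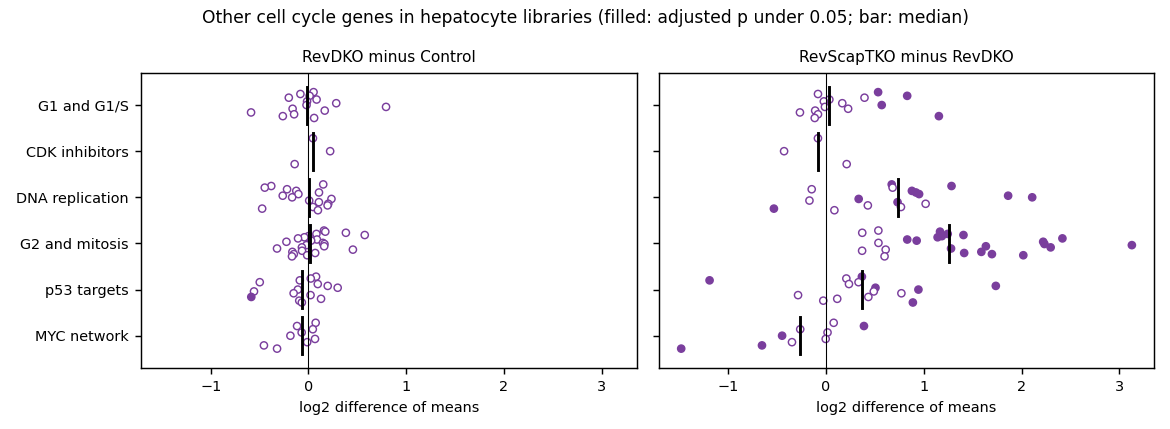
Difference in mean level on the log2(RPKTM + 1) scale for each gene of 6 cell cycle lists in hepatocytes, with filled points at an adjusted p under 0.05 and a bar at each list's median. In RevDKO minus Control the points lie around 0, and in RevScapTKO minus RevDKO the mitotic and replication lists lie mostly to the right.

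In macrophages 3 of the 10 genes passed the threshold in a comparison of mean levels, all in RevScapTKO. RevDKO minus Control called none of the 10 by limma (3 at an unadjusted p under 0.05; 0.574% of all 13947 genes were called, 0.402% higher and 0.172% lower), RevScapTKO minus RevDKO called Mki67 and Myc as higher (3.0% of all genes, 1.23% higher and 1.78% lower), and RevScapTKO minus Control called Cdkn1a as higher (3.76%, 2.38% higher and 1.38% lower). No gene and time pair passed in any of the comparisons (6, 8 and 2 of 40 at an unadjusted p under 0.05), where 0 to 0.33% of all genes passed at a time (0.00717% at ZT4 in RevDKO minus Control). Whether an effect differed between hepatocytes and macrophages was not tested, because the tables were normalized apart.

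Mki67 in macrophages lay between 28.3 and 221 RPKTM in RevScapTKO (median 75.9, n = 12), between 10.8 and 98.6 in RevDKO (median 20.7) and between 21.9 and 73.5 in Control (median 47.9). The groups overlapped, and RevDKO was low from ZT16 to ZT22, with all 6 values between 10.8 and 26.1. The difference of RevScapTKO from RevDKO was 1.473 (log2, SE 0.26, adjusted p = 0.000490), and without the 5 libraries of low correlation Mki67 was still called. The replicate number of the RevScapTKO library with the highest Mki67 was the same in hepatocytes and macrophages at 4 of 4 times (Ccnd1 3 of 4, Top2a and Myc 2 of 4). Myc lay between 8.14 and 58.3 in RevScapTKO (median 23.0) and between 1.588 and 43.8 in RevDKO (median 8.25), a difference of 1.32 (SE 0.35, adjusted p = 0.0267). That call was lost without RevDKO ZT4 replicate 3, ZT10 replicate 1 or ZT22 replicate 1, or RevScapTKO replicate 3 of ZT4, ZT10 or ZT16 (1.12 to 1.25, adjusted p from 0.0515 to 0.0608).

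Cdkn1a in macrophages lay between 0 and 18.1 RPKTM in Control (median 4.77), between 0 and 54.1 in RevDKO (median 15.1) and between 8.65 and 41.3 in RevScapTKO (median 24.7). At ZT4 the Control libraries read 4.51, 4.27 and 3.84, those of RevDKO 22.7, 17.7 and 22.6 and those of RevScapTKO 38.6, 30.4 and 24.3, with no overlap between genotypes. The RevDKO libraries overlapped both other genotypes at ZT16 (0 to 54.1) and ZT22 (6.39 to 35.9). Cdkn1a passed at no single time in macrophages, ZT4 included. Over the day RevScapTKO exceeded Control by 2.06 (log2, SE 0.40, adjusted p = 0.00146), and RevDKO exceeded it by 1.112 (SE 0.40, adjusted p = 0.223), which did not pass. The 10 hepatocyte markers summed to 58618 to 2407560 RPKTM in these Control macrophage libraries, 53357 to 125950 in RevDKO and 36536 to 828686 in RevScapTKO. With the hepatocyte marker score as a covariate the RevScapTKO difference from Control was 2.40 (adjusted p = 0.000319), and those of Mki67 and Myc from RevDKO were 1.32 (adjusted p = 0.0148) and 1.15 (adjusted p = 0.0849). The covariate fit called Cdkn1a also between RevScapTKO and RevDKO (1.46, adjusted p = 0.0478), where it called 10.6% of all genes, and 14.2% against Control.

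Wee1 was low in macrophages (medians 6.497, 2.81 and 6.18 RPKTM in Control, RevDKO and RevScapTKO), and its RevDKO difference of -0.88 (SE 0.35) had an adjusted p of 0.272. Gadd45g spread widely between libraries of 1 time, since RevDKO read 277, 152 and 53.6 at ZT4 and 27.98, 21.0 and 73.4 at ZT10, and these sets overlapped. None of the 10 genes had a 24 h pattern past the threshold in any macrophage set by limma (3 in Control, 3 in RevDKO and 0 in RevScapTKO at an unadjusted p under 0.05), where 0.0502%, 2.53% and 0.0789% of all genes passed. The differences in pattern between genotypes passed for none of the 10 genes (0 and 0 at an unadjusted p under 0.05) and for none of all genes. Of the other lists, 2 of 26 mitotic genes were higher in RevScapTKO than in RevDKO macrophages (1.23% of all genes), Kif11, a spindle motor (1.70, SE 0.45, adjusted p = 0.0276), and Tpx2, which activates Aurora A (1.40, SE 0.38, adjusted p = 0.0346). Against Control, Mdm2, the p53 ubiquitin ligase, was higher (0.82, SE 0.20, adjusted p = 0.0144) and Mycn lower (-1.08, SE 0.30, adjusted p = 0.0367).

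**Figure D5:**
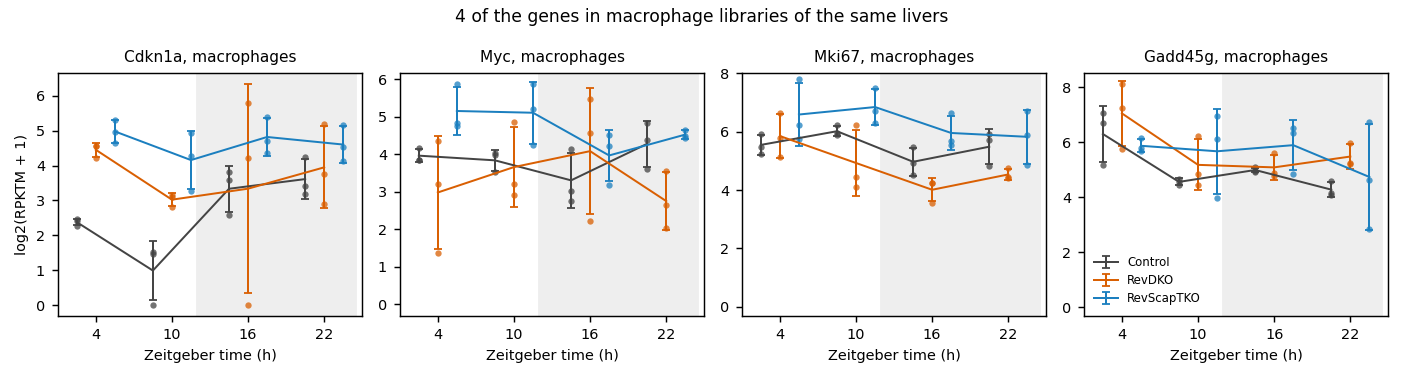
Levels of Cdkn1a, Myc, Mki67 and Gadd45g as log2(RPKTM + 1) against zeitgeber time in hours in macrophage libraries (points are single libraries, lines means, bars the SD of 3 libraries, grey the dark phase). Cdkn1a is lowest in Control at ZT4 and ZT10, and Mki67 is lowest in RevDKO at ZT16.

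The ScapKO tables hold no Control, so only the daily pattern and the order of levels could be described. In ScapKO hepatocytes Wee1 read 12.9, 59.0 and 34.0 RPKTM at ZT4, 198, 182 and 121 at ZT10, 89.6, 114 and 159 at ZT16 and 51.2, 24.7 and 36.7 at ZT22. Cdkn1a read 26.3, 14.5 and 21.0 at ZT4, 12.7, 1.22 and 15.0 at ZT10, 116, 63.2 and 52.7 at ZT16 and 83.2, 46.8 and 147 at ZT22. Wee1 was highest in the ZT10 and ZT16 libraries and Cdkn1a was higher in each library of ZT16 and ZT22 than in any of ZT4 and ZT10. Both had a 24 h pattern by limma (Wee1 peak-to-trough 2.903, peak ZT12.8, adjusted p = 0.00893; Cdkn1a 3.87, peak ZT20.1, adjusted p = 0.0150), as 2 of 10 genes where 1.85% of all genes passed. Both calls were lost without the filter on low values (adjusted p = 0.119 and 0.153), that of Cdkn1a also with robust library weights (0.0581), and neither when any 1 library was left out. Ccnd1 had the highest median of the 10 genes (157, range 75.5 to 605), followed by Gadd45g (152, 18.9 to 656). In ScapKO macrophages none of the 10 genes had a 24 h pattern by limma (1 at an unadjusted p under 0.05), nor had any of all genes, and Ccnd1 led the order (median 584, range 481 to 682) before Mki67 (229, 90.7 to 434). In that table Ccne2 and Myc were represented by other transcripts than elsewhere, NM_001282943 and NM_001177352.

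By JTK_CYCLE, a rank test of daily patterns, with each series entered 2 times in a row, 4 of 10 genes were rhythmic in Control hepatocytes (Cdkn1a, Wee1, Gadd45a and Mki67; 20.8% of all genes), 3 in RevDKO (Wee1, Ccnd1 and Ccne2; 20.5%) and 2 in RevScapTKO (Ccnd1 and Gadd45a; 12%). In macrophages it called Cdkn1a in Control (11.2%), Mki67 and Gadd45g in RevDKO (16.1%) and Myc in RevScapTKO (8.57%). In the ScapKO sets it called Cdkn1a, Wee1, Gadd45a and Ccnd1 in hepatocytes (12.9%) and Mki67 and Top2a in macrophages (13.3%). Entering a series again adds no data: entered once, Gadd45a in RevScapTKO hepatocytes, Cdkn1a in Control macrophages and Mki67 in RevDKO macrophages were the calls left, beside 1.48%, 1.01% and 1.5% of all genes.

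The genes whose pattern over the 36 libraries of a table was most like that of a member were listed by Pearson's r of log2(RPKTM + 1), as a description over libraries that share time points and normalization. In hepatocytes Cdkn1a was closest to Arntl, which encodes the clock activator BMAL1 (r = 0.894), with Chka (0.828) also among its closest, and Wee1 to Nmrk1 (0.786), Nampt (0.764) and Riok2 (0.755). Mki67 was closest to Knl1, a kinetochore gene (0.942), Top2a (0.939) and a locus listed as D17H6S56E-5 (0.937). Ccnd1 was closest to the overlapping LTO1 (0.912), then Ncapg2 (0.884) and Mcm6 (0.878), whereas the closest to Gadd45g reached only 0.603 (Mir6397). In macrophages Mki67 was closest to Irf7 (0.794), Slfn1 (0.789) and Rnf213 (0.789), genes of the interferon response, and Ccnd1 again to LTO1 (0.802). Wee1, Cdkn1a and Gadd45g reached 0.677 (Dusp28), 0.740 (Leo1) and 0.683 (Tead3) there.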

How the data were processed

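RNA sequencing libraries of ribosomal RNA-depleted total RNA were aligned by the authors with STAR to mm9 and counted over RefSeq transcripts with HOMER (versions and strand setting not given in the sources used here). The deposited values are RPKM-type values per 10000000 mapped reads (RPKTM), quantile normalized by the authors within each of 4 tables, so the sequencing depth is unknown and no interval from counts was possible. Samples were grouped by GEO's labels.

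Genes over 5 RPKTM in at least 3 libraries of a table were tested on log2(RPKTM + 1) with limma 3.58.1 in R 4.3.3, with a term for each genotype and time. Contrasts were the mean over times, each time, the 24 h cosine and sine terms, and their difference between genotypes, and p-values were adjusted over all genes tested (Benjamini-Hochberg, threshold 0.05). Fold changes on this scale understate the change of low genes. JTK_CYCLE, as in the study's methods, was recomputed in Python 3.11.15. The scripts were tested on simulated data. From each list up to 3 genes past the threshold were named, by smallest p, among those of 1 sign at all 4 times. The 10 genes and the lists were chosen with earlier results of these data known. Alternatives were other pseudocounts, no filter, all transcripts, robust weights, a marker covariate, a replicate block, only the genotypes compared, and each library left out. Leaving out the 5 macrophage libraries of low correlation was added after seeing the data.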

Additional observations from a re-analysis of the deposited data

Results flagged for a closer look

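The daily pattern of Cdkn1a in hepatocytes differed between RevDKO and Control by a test of the difference itself (adjusted p = 0.0263 by limma). The peak-to-trough difference was 4.78 on the log2 scale in Control and 0.73 in RevDKO. Control libraries at ZT10 read 0 to 1.17 RPKTM, where the pseudocount weighs on the size of a log2 difference. With a pseudocount of 5 the peak-to-trough difference of RevDKO minus Control was -2.46 (adjusted p = 0.249 by limma). The call was also lost without the filter on low values, with only both genotypes fitted and without any 1 of 7 libraries. Of all genes tested 27 (0.203%) passed this test. Groups of 3 libraries were too small for a test of single outlying libraries.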

How the results depend on the processing

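Of the 41 single results of the 10 genes past the threshold, 14 were called under each of the other settings run for them and without any 1 library, and none reversed. Causes of the changes below were not tested, and the number of libraries limits the precision. Counts are of the 10 genes, or of 40 gene and time pairs, called by limma. Shares of all genes called are not given for most of these settings. A changed count is therefore no result about the 10 genes in themselves.

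In RevDKO minus Control hepatocytes, the 4 pairs became 2 with a pseudocount of 0.1 and 2 without the filter, and the 1 changed 24 h pattern became 0 with a pseudocount of 5, 0 without the filter and 0 with only both genotypes fitted. With the macrophage marker covariate, RevScapTKO minus RevDKO hepatocytes went from 4 genes to 0 and from 4 pairs to 1, and RevScapTKO minus Control from 6 genes to 2 and from 10 pairs to 5. In macrophages, RevScapTKO minus RevDKO went from 2 genes to 1 without the filter and to 1 with only both genotypes fitted, and from 0 pairs to 4 with robust weights. RevScapTKO minus Control macrophages went from 1 gene to 3 with robust weights and to 2 with only both genotypes fitted, and from 0 pairs to 2 with robust weights, 1 with the hepatocyte marker covariate, 2 with only both genotypes fitted and 2 without the libraries of low correlation.

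For 24 h patterns by regression, robust weights gave 2 genes in place of 1 in RevDKO hepatocytes, 1 in place of 2 in ScapKO hepatocytes and 7 in place of 0 in ScapKO macrophages. Dropping the filter gave 0 in ScapKO hepatocytes, and a test of any difference between times gave 1 in place of 0 in RevDKO macrophages. By JTK_CYCLE with the series entered once, the counts in hepatocytes went from 4 to 0 in Control, 3 to 0 in RevDKO, 2 to 1 in RevScapTKO and 4 to 0 in ScapKO, and in macrophages from 2 to 1 in RevDKO, 1 to 0 in RevScapTKO and 2 to 0 in ScapKO.

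Leaving out 1 library at a time gave 2 to 5, 2 to 5 and 7 to 14 pairs in hepatocytes for the comparisons RevDKO to Control, RevScapTKO to RevDKO and RevScapTKO to Control, 0 to 1, 0 to 1 and 0 to 2 pairs in macrophages, and 0 to 1, 1 to 3 and 1 to 2 genes in the mean level of macrophages, in that order. It gave 0 to 1 changed patterns in RevDKO minus Control hepatocytes and 2 to 3 patterns by regression in ScapKO hepatocytes. By JTK_CYCLE it gave 2 to 5, 1 to 2, 1 to 2 and 4 to 5 genes in Control, RevDKO, RevScapTKO and ScapKO hepatocytes, and 1 to 2, 1 to 2, 0 to 1 and 0 to 3 in macrophages.

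Replicate numbers are shared between groups. Deviations of same-numbered libraries correlated by -0.14 to 0.28 (median 0.05) in hepatocytes and -0.20 to 0.37 (median 0.09) in macrophages. Medians for libraries of other numbers were -0.03 and -0.05. Of 36 libraries, 25 and 26 correlated best with their own number, a hint in the data of a shared block. The paper states that the genotypes were sacrificed in alternation at each time, but not that numbers pair the libraries. The number was therefore left out of the main fit. With the number as a replicate block, the mean level gave 3, 5 and 6 genes and the single times 4, 6 and 13 pairs in hepatocytes, in the same order of comparisons. In macrophages the block gave 2 pairs in place of 0 for RevScapTKO minus RevDKO, 2 genes in place of 1 for RevScapTKO minus Control, and 1 gene in place of 0 with a 24 h pattern in RevDKO.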
